A study of Mus musculus with 15 samples.

Results

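Carnosine given by the nose to transgenic mice was examined in the midbrain, across all expressed genes, by setting the 3 libraries of treated transgenic mice (TG intranasal) against the 3 libraries of transgenic mice that were given no carnosine (TG control). These are 6 of the 15 libraries of the study, chosen by their labels. The mice of both groups are of the Thy1-aSyn line and so carry the same transgene, which the name gives as alpha-synuclein under the Thy1 promoter, a promoter active in many kinds of neuron; the background of the non-transgenic mice is BDF1. Treatment began at 2 months of age and went on for 2 months, with 2 mg of carnosine in TG intranasal. The other groups, used here for comparison, were TG mice with 10 mM carnosine in their drinking water (TG drinking water), wild-type mice with the same nasal dose (WT intranasal) and untreated wild-type mice (WT control), with 3 libraries each. Of the 24454 gene rows in the deposited counts, 15818 had enough counts to be tested.

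Carnosine is a dipeptide of beta-alanine and histidine, found mainly in muscle and also in brain. Carnosine synthase (Carns1) makes it, dipeptidases such as Cndp2 split it, and proton-coupled oligopeptide transporters such as Slc15a2 carry it across membranes. In chemistry and in cell culture it buffers acid, binds metals and reacts with reactive carbonyls such as methylglyoxal, the compound that the glyoxalases remove inside cells. The midbrain holds the dopamine neurons that are lost in Parkinson's disease, in which alpha-synuclein accumulates.

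The TG intranasal libraries held 29916249, 23055862 and 34843691 counts, and the TG control libraries held 14078637, 14208334 and 17347311. Levels below are CPM, counts relative to library sizes that were scaled with the TMM method, and fold changes are log2 values of TG intranasal over TG control. Their p-values are from the quasi-likelihood test of edgeR, adjusted over the 15818 genes by the method of Benjamini and Hochberg. Thy1, whose promoter drives the transgene, was at 5032, 4576 and 3951 CPM in TG intranasal and at 4051, 3297 and 4287 CPM in TG control (log2 fold change 0.22, SE 0.172, edgeR adjusted p 0.623). The 6 WT libraries, which lack the transgene, had 444 to 694 CPM. The dopamine transporter Slc6a3, a defining marker of midbrain dopamine neurons, was at 21.01, 6.48 and 0.474 CPM in TG intranasal and at 19.5, 12.1 and 1.45 CPM in TG control. It was near 0 in the third library of each group, and tyrosine hydroxylase (Th) was lowest there too, at 2.96 CPM in TG intranasal 3 and 5.63 CPM in TG control 3. In those libraries the summed level of 12 striatal genes was highest. The pituitary hormone gene Gh was at 36.5, 11.49 and 58.5 CPM in TG intranasal and at 557, 9.93 and 1.22 CPM in TG control, and the granule cell gene Gabra6, a marker of cerebellum, was at 2.46 CPM or less in all 6. The part of these differences in tissue makeup in the results below was not tested.

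A second difference runs across the control group. The most abundant of the gene rows without a name took 0.283%, 0.174% and 0.165% of the counts in TG intranasal, and 3.07%, 2.31% and 0.157% in TG control. All WT libraries lie above 1%, as TG control 1 and 2 do, and all TG drinking water libraries lie below it, as TG control 3 does. TG control 3 is therefore the only control library that shares this feature with the TG intranasal libraries. TG control is also the only group with libraries on both sides of the split. In every comparison that uses TG control, a term for the split therefore leaves only TG control 3 to compare with. What caused the split is not given in the sources used here, and results that follow it are given below with the value of each library.

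In the whole of the table, 1 gene passed the adjusted p of 0.05, Lrrc17, which was higher in TG intranasal (0.00632% of the genes tested, and 0% lower). At an unadjusted p under 0.05 edgeR counted 605 genes higher (3.82%) and 936 lower (5.92%), and DESeq2 called 4 genes higher and 15 lower at an adjusted p of 0.05. The libraries of the 2 groups did not overlap for 941 genes that were higher in TG intranasal (5.95%) and for 927 that were lower (5.86%). All genes other than Lrrc17 are given as values that did not pass.

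Lrrc17 (gene ID 74511, on chromosome 5), which encodes a secreted leucine-rich repeat protein known in bone as an inhibitor of osteoclast formation, was at 16.7, 127 and 147 CPM in TG intranasal and at 5.49, 3.08 and 8.30 CPM in TG control. All 3 treated libraries lay above all 3 controls, and TG intranasal 1 lay far below the other treated libraries. Lrrc17 rose by a log2 fold change of 4.09 (SE 0.584, edgeR adjusted p 0.0385). The level in TG drinking water was as high, at 134, 117 and 83.7 CPM, and TG intranasal minus TG drinking water gave a log2 difference of -0.21 with an unadjusted p of 0.681. The wild-type libraries had 8.65, 5.17 and 5.21 CPM in WT intranasal, against 21.6, 19.2 and 27.1 CPM in WT control, so all treated WT libraries lay below the untreated ones. The difference between the genotypes in the response to nasal carnosine was 5.94 on the log2 scale (edgeR adjusted p 0.0154). The fold change in TG mice kept its sign in every refit, between 3.54 and 4.59, but the call was lost in several of them: the adjusted p was 0.118 without TG intranasal 2, 0.158 without TG intranasal 3, 0.191 without TG control 1, 0.253 without TG control 2, 0.452 with a term for the split between libraries and 0.469 with the 2 groups fitted alone.

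**Figure D1:**
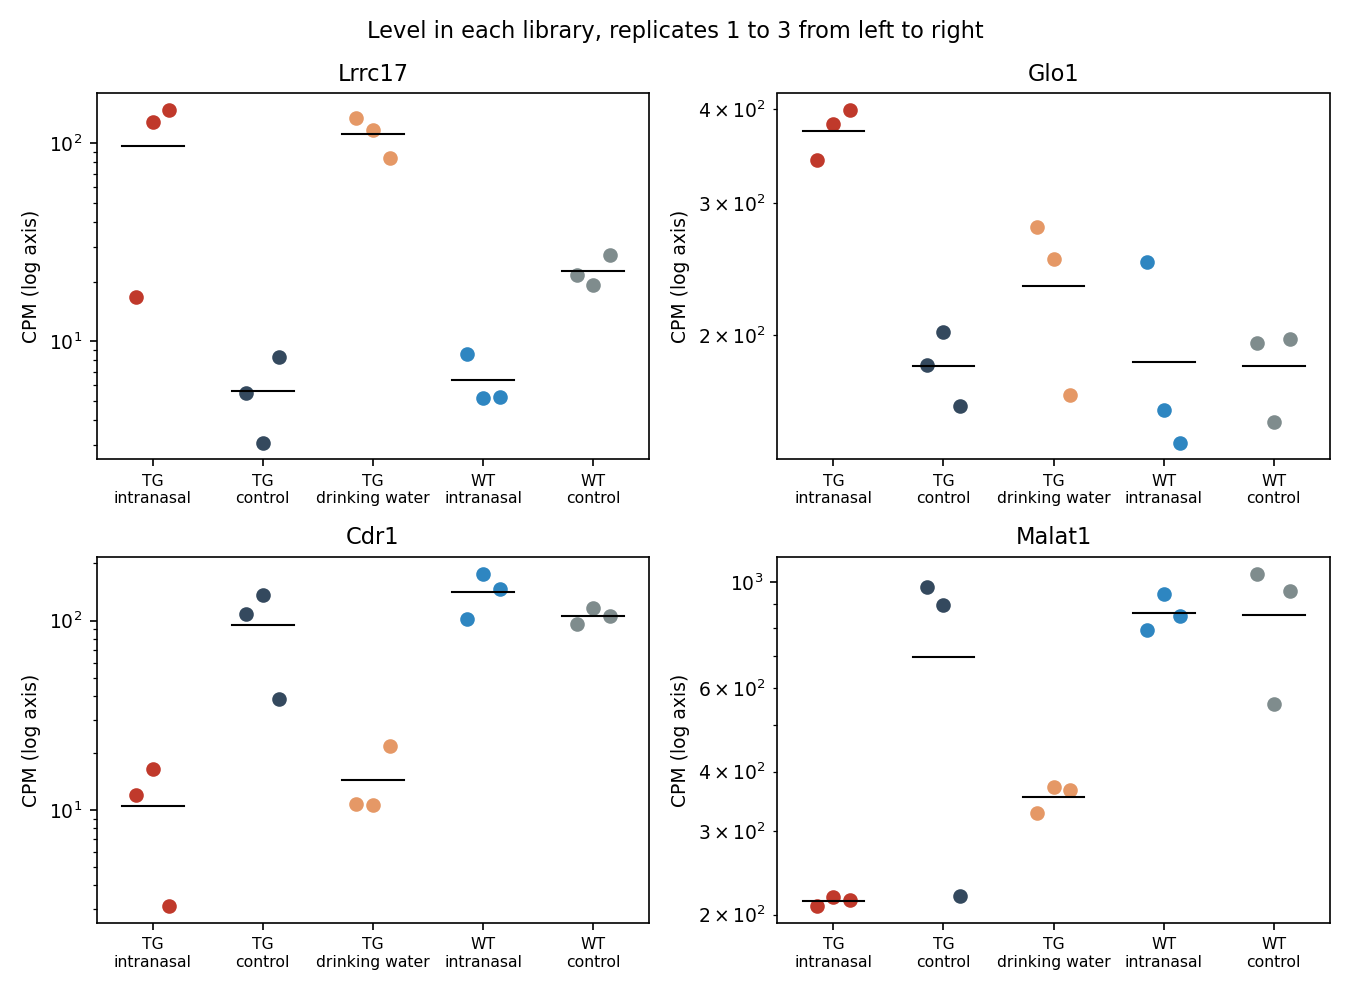
CPM (log axis) of 4 genes in each of the 15 libraries, by group, with a point for each library and a bar at the mean of the group. Lrrc17 was high in TG intranasal 2 and 3 (127 and 147 CPM) and in all TG drinking water libraries; Glo1 was highest in the 3 TG intranasal libraries (342 to 399 CPM); Malat1 was at 218 CPM in TG control 3, beside the TG intranasal libraries and far from the other controls.

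The genes next in order among those higher in TG intranasal were Glo1, Tpm2, Colq and Cela1. Glo1 is glyoxalase 1, the enzyme that starts the removal of methylglyoxal. It was at 342, 382 and 399 CPM in TG intranasal and at 183, 202 and 161 CPM in TG control, with tight groups that did not overlap (log2 fold change 1.04, SE 0.217, edgeR adjusted p 0.406). TG drinking water lay between on average, at 279, 253 and 166 CPM. Tpm2, a tropomyosin of smooth and skeletal muscle, was at 26.0, 19.7 and 22.5 CPM in TG intranasal and at 14.0, 8.39 and 12.1 CPM in TG control (log2 fold change 0.98, edgeR adjusted p 0.51). Colq, which anchors acetylcholinesterase in the basal lamina, was at 1.56, 1.48 and 2.99 CPM in TG intranasal and at 0.214, 0.560 and 0.290 CPM in TG control. Cela1, a pancreatic-type elastase, was at 9.25, 7.67 and 12.6 CPM in TG intranasal and at 5.49, 3.57 and 4.76 CPM in TG control. None of the 4 overlapped between the groups. Glo1, Tpm2 and Colq passed in DESeq2, with adjusted p of 0.00456, 0.0398 and 0.0398.

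Among genes lower in TG intranasal the smallest p belonged to Cdr1, whose locus also gives the circular RNA Cdr1as from the opposite strand. Cdr1 was at 11.98, 16.5 and 3.11 CPM in TG intranasal and at 108, 137 and 38.5 CPM in TG control, with no overlap (log2 fold change -3.17, SE 0.508, edgeR adjusted p 0.0808). It was low in TG drinking water as well, at 10.8, 10.7 and 21.7 CPM. The strand setting of the counting is not given in the sources used here, so reads of the 2 transcripts cannot be told apart. Wdr63, an inner dynein arm protein of motile cilia, had 0 counts in all 3 TG intranasal libraries and 9, 4 and 17 counts in TG control. Against a floor of 3 counts per library that is at least 6.21-fold lower, with an edgeR adjusted p of 0.145.

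Lars2, Mir6236, Mir6240 and Malat1 lay with the split between libraries in all 6. Lars2, the mitochondrial leucyl-tRNA synthetase, was at 399, 224 and 187 CPM in TG intranasal and at 5789, 3747 and 328 CPM in TG control. TG control 3 was thus close to the treated libraries, and the other controls were far higher. The log2 fold change was -3.61 with an edgeR adjusted p of 0.145. Mir6240 was at 6.71, 3.57 and 3.79 CPM in TG intranasal and at 120, 75.5 and 6.56 CPM in TG control, and Mir6236 at 22.2, 15.7 and 14.998 CPM in TG intranasal and at 406, 241 and 18.4 CPM in TG control. The long nuclear RNA Malat1 was at 208, 217 and 214 CPM in TG intranasal and at 978, 895 and 218 CPM in TG control. Neat1, the scaffold RNA of paraspeckles, was at 43.0, 62.1 and 83.6 CPM in TG intranasal and at 141, 141 and 65.8 CPM in TG control, so that the groups overlapped only through TG control 3. Without TG control 3, Cdr1, Mir6240, Lars2, Mir6236 and Malat1 passed the test, with adjusted p of 0.00316, 1.0e-05, 2.5e-05, 2.5e-05 and 0.000137. With TG control 3 as the only control none of these 5 passed, and their log2 fold changes, in the same order, were then -1.88, -0.48, -0.28, -0.065 and -0.037. In DESeq2 with all 3 controls, Cdr1, Lars2, Mir6240, Mir6236 and Wdr63 passed, with adjusted p of 0.000253, 5.3e-07, 0.000255, 0.00264 and 0.00427.

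**Figure D2:**
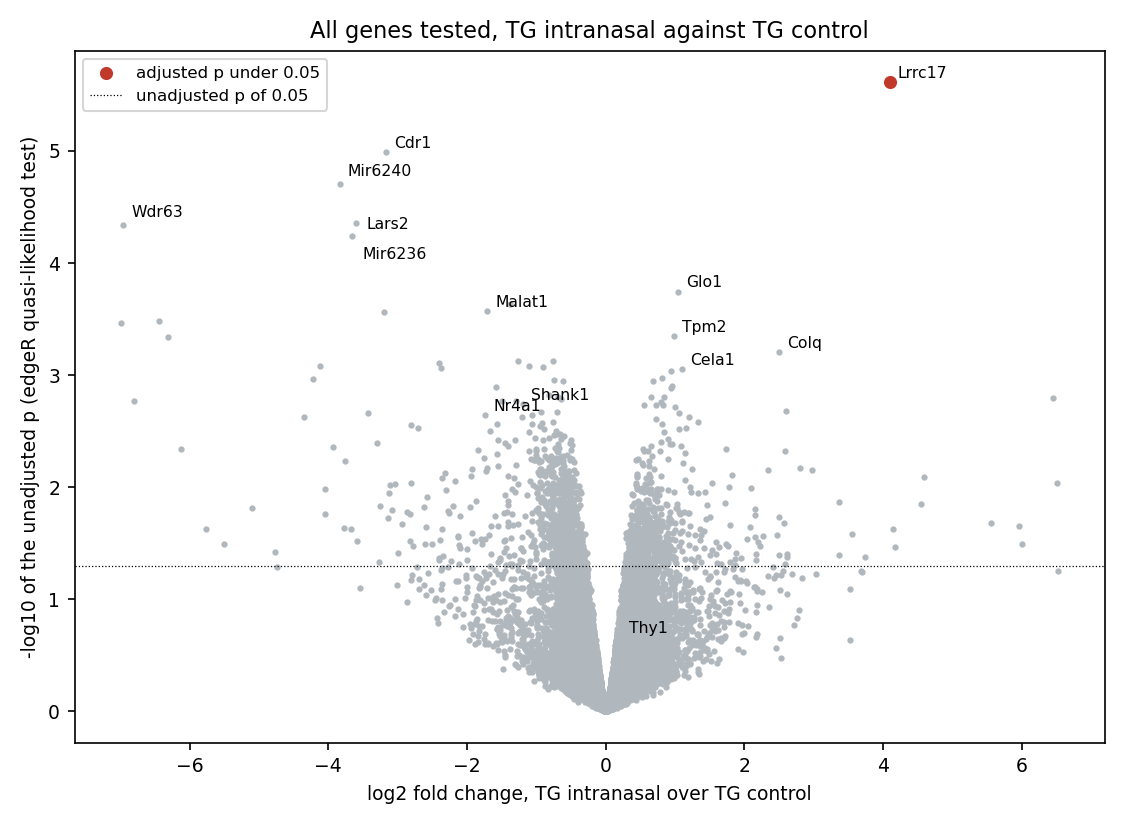
The log2 fold change of TG intranasal over TG control (x axis) and the -log10 of its unadjusted p (y axis) for the 15818 genes tested, a point each; the dotted line is an unadjusted p of 0.05. Lrrc17, in red, is the only gene at an adjusted p under 0.05; Cdr1, Mir6240, Lars2, Wdr63 and Mir6236 lie highest on the left and Glo1, Tpm2, Colq and Cela1 on the right.

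Gene lists were read by counting members and by their median, beside all genes tested, whose median log2 fold change was 0.00 and of which 49.6% were above 0. No member of any list described below reached an adjusted p under 0.05. Of all genes tested, 3.82% had an unadjusted p under 0.05 on the high side and 5.92% on the low side. The shares without overlap were 5.95% and 5.86%. Immediate early genes and postsynaptic scaffold genes lay on the low side, and ribosomal, respiratory chain and proteasome genes on the high side. Markers of brain regions and of the pituitary also had medians away from 0.

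Of 7 pituitary genes 6 were lower in TG intranasal, with a median log2 fold change of -1.89, and their summed level was 66.7, 23.3 and 95.1 CPM in TG intranasal and 687, 13.9 and 4.52 CPM in TG control. The high value is that of TG control 1, and without it the median was 2.70. All 12 striatal genes were lower, with a median of -0.63, and their summed level was 297, 226 and 833 CPM in TG intranasal and 324, 227 and 1547 CPM in TG control. The summed levels overlap between the groups, and without TG control 3 the striatal median was 0.73. Thalamic and habenular genes were lower in 10 of 12 cases, with a median of -0.43. Markers of serotonin neurons were higher in 6 of 8 cases, with a median of 0.41 (-0.19 without TG intranasal 2), and hypothalamic genes in 7 of 9, with 0.35 (-1.37 without TG intranasal 3). In edgeR 0 pituitary, striatal or serotonin neuron genes had an unadjusted p under 0.05, against 1 of the thalamic and habenular genes and 1 of the hypothalamic genes.

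**Figure D3:**
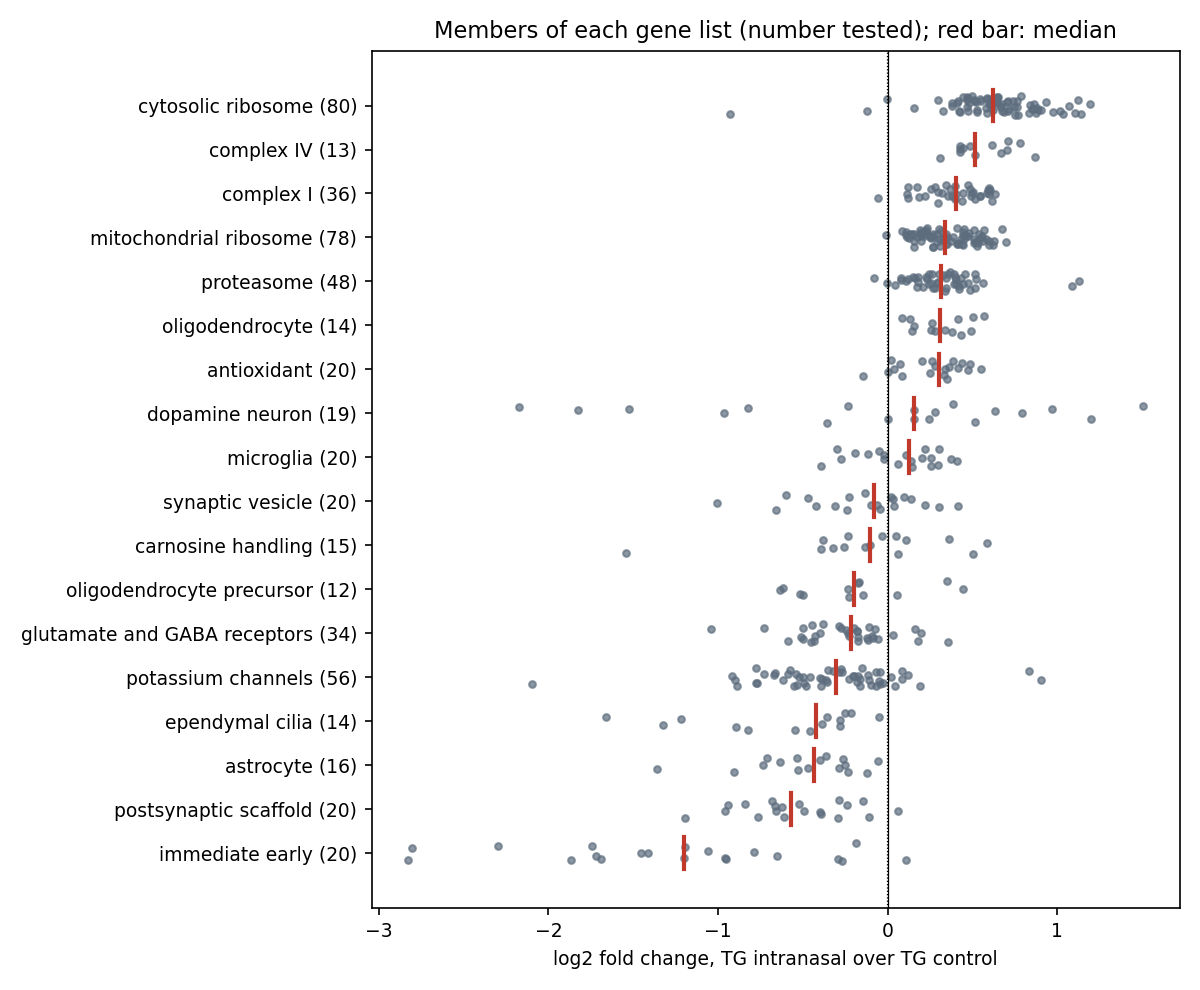
The log2 fold change of TG intranasal over TG control (x axis) for each tested member of 18 gene lists (rows, with the number tested), a point for each gene and a red bar at the median; the dotted line is the median of all genes tested. Medians run from 0.62 for the cytosolic ribosome down to -1.20 for immediate early genes.

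Immediate early genes are transcribed within minutes of neuronal firing or of growth factor signals, without new protein synthesis, and many encode transcription factors. Of the 20 tested, 19 were lower in TG intranasal, with a median log2 fold change of -1.20, and 12 had an unadjusted p under 0.05 (5.92% of all genes did so on the low side). For 8 of the 20 the groups did not overlap, against 5.86% of all genes on the low side. Nr4a1, an orphan nuclear receptor, was at 27.8, 38.8 and 39.4 CPM in TG intranasal and at 218, 65.9 and 70.7 CPM in TG control (log2 fold change -1.74, SE 0.483, edgeR adjusted p 0.51). Arc, a synaptic protein that drives AMPA receptor uptake, was at 71.3, 201 and 147 CPM in TG intranasal and at 408, 362 and 379 CPM in TG control. In these 2 genes every treated library lay below every control. Fos, Npas4 and Btg2 differed through a single library. Fos was at 5.24, 19.3 and 17.9 CPM in TG intranasal and at 176, 18.7 and 14.6 CPM in TG control, and Npas4, a transcription factor induced by calcium entry, at 3.24, 8.49 and 12.7 CPM in TG intranasal and at 161, 4.90 and 5.05 CPM in TG control. Btg2, an antiproliferative gene, was at 13.4, 10.7 and 17.3 CPM in TG intranasal and at 110, 14.6 and 12.4 CPM in TG control. Of the 6 libraries of TG intranasal and TG control, TG control 1, the one with the highest Gh, stood far above the others in Fos, Npas4 and Btg2. Without TG control 1 the median of the list was -0.26, and the log2 fold changes of Npas4 and Btg2 were then 0.71 and 0.029.

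The promoters of 3 of these genes are printed to show the sequence element through which calcium and cyclic AMP signals are known to act on genes of this class, the CRE, with letters TGACGTCA, and its half-site TGACG. They are the 250 bases before the annotated start, 5′ to 3′ on the strand of the gene, from RefSeq on build GRCm38.p6: chr15:101266596-101266845 on the plus strand for Nr4a1, chr1:134079156-134079405 on the minus strand for Btg2 and chr12:85473640-85473889 on the plus strand for Fos. Capitals mark TGACG, or CGTCA where the half-site lies on the other strand.
Nr4a1: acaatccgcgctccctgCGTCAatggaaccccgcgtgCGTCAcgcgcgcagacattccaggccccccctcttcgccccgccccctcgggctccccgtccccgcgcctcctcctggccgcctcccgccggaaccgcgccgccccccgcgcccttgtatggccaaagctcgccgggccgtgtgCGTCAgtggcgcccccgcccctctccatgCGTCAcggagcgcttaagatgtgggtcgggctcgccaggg
Btg2: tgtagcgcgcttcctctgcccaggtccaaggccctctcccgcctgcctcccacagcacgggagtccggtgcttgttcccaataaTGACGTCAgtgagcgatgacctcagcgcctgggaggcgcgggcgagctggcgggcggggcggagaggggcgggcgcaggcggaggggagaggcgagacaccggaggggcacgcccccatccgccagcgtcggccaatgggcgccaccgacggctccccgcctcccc
Fos: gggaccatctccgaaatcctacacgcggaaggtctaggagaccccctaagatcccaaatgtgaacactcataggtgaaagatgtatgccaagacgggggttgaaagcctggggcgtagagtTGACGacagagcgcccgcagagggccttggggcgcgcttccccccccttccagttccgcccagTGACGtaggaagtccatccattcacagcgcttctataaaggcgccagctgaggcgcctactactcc
The window shown for Nr4a1 holds 4 half-sites, all on the other strand, that for Fos holds 2, and that for Btg2 holds the full CRE, whose strands overlap as 2 half-sites. Searched on both strands in windows of 300 bases (250 before and 50 after the start), the half-site was in 14 of 20 promoters of the list, from 16 genes of which 12 had it. Several of these windows belong to Egr2 and share sequence. Of the 15828 promoters of tested genes 28.6% held the half-site. The full CRE was in 2 of the 20, Btg2 and Dusp1, against 2.81% of promoters of tested genes. A match describes the letters in the window only.

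Postsynaptic scaffold genes encode the proteins that hold receptors under the synaptic membrane. Of 20 tested, 19 were lower in TG intranasal, with a median log2 fold change of -0.57. Of the 20, 12 had an unadjusted p under 0.05, and for 8 the groups did not overlap (5.92% and 5.86% of all genes on the low side). Shank1, a master scaffold of excitatory synapses, was at 311, 331 and 223 CPM in TG intranasal and at 384, 937 and 657 CPM in TG control (log2 fold change -1.19, SE 0.322, edgeR adjusted p 0.51). Dlg4, which encodes PSD-95, was at 697, 642 and 641 CPM in TG intranasal and at 864, 977 and 1205 CPM in TG control. Dlgap3, a partner of PSD-95 abundant in striatum, was at 484, 393 and 433 CPM in TG intranasal and at 524, 593 and 961 CPM in TG control. Dlgap2, of the same family, was at 26.9, 24.0 and 27.002 CPM in TG intranasal and at 27.02, 44.3 and 47.7 CPM in TG control. All 4 were without overlap, and in each TG control 1 lay closest to the treated libraries. TG drinking water was near or below TG intranasal, with Shank1 at 304, 263 and 283 CPM and Dlg4 at 650, 518 and 577 CPM. Correction for transcript length and GC content gave a median of -0.27 for the list, with the sign kept. The striatal list lay on the same side, with TG control 3 as its highest library, and its part in the scaffold genes was not tested.

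Channels and receptors of the neuronal membrane were mostly on the low side as well. Of 56 potassium channel genes tested (of 64 in the table), 48 were lower, with a median of -0.30. Among these 48, 12 had an unadjusted p under 0.05 (5.92% of all genes did so on the low side). Kcnma1, the large-conductance calcium-activated channel, was at 26.7, 31.7 and 22.3 CPM in TG intranasal and at 36.1, 69.6 and 45.0 CPM in TG control, and Kcnq3, a subunit of the M current, at 13.5, 13.7 and 11.0 CPM in TG intranasal and at 14.9, 27.8 and 22.9 CPM in TG control. Kcnj2, an inward rectifier, was at 8.77, 9.80 and 7.23 CPM in TG intranasal and at 17.3, 11.3 and 9.86 CPM in TG control. None of the 3 overlapped. Of 34 glutamate and GABA receptor genes 29 were lower, with a median of -0.21 and 6 at an unadjusted p under 0.05. Grin2b, an NMDA receptor subunit, was at 18.6, 15.01 and 9.90 CPM in TG intranasal and at 20.2, 47.0 and 22.2 CPM in TG control, and Gabbr1, a subunit of the GABA-B receptor, at 562, 513 and 514 CPM in TG intranasal and at 664, 711 and 776 CPM in TG control. The glutamate receptor Grm3 overlapped, at 42.6, 33.0 and 44.6 CPM in TG intranasal and at 38.1, 88.6 and 54.1 CPM in TG control. Presynaptic genes were nearer to all genes tested: of 20 synaptic vesicle genes 12 were lower, with a median of -0.08, and 4 had an unadjusted p under 0.05. The sign of that median turned without TG intranasal 3, at 0.0089. Among these genes, Cplx2, a complexin that clamps vesicle fusion, was at 826, 992 and 873 CPM in TG intranasal and at 1074, 1482 and 1691 CPM in TG control. The active zone genes Unc13a and Bsn overlapped, since TG control 1 lay within the treated libraries for both. Without TG control 2 the medians were -0.18 for potassium channels and -0.09 for glutamate and GABA receptors, and correction for length and GC content gave -0.10 for potassium channels.

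Astrocyte markers were lower in TG intranasal in all 16 cases tested, with a median of -0.44. Of the 16, 8 had an unadjusted p under 0.05 (5.92% of all genes did so on the low side). In bulk tissue fewer cells of a type and less RNA per cell cannot be told apart. Slc1a2, the main glutamate transporter of astrocytes, was at 916, 1118 and 919 CPM in TG intranasal and at 1159, 4879 and 1531 CPM in TG control, and Slc1a3, the other one, at 404, 364 and 474 CPM in TG intranasal and at 437, 1044 and 591 CPM in TG control. Slc4a4, a bicarbonate cotransporter, was at 151, 188 and 175 CPM in TG intranasal and at 226, 551 and 187 CPM in TG control, and the transcription factor Sox9 at 33.5, 47.8 and 44.3 CPM in TG intranasal and at 53.6, 94.2 and 47.5 CPM in TG control. TG control 2 was the highest library in all 4, and of the 4 only Slc1a2 did not overlap between the groups. Without TG control 2 the median was -0.16. The list of reactive astrocyte genes did not share the direction, with 12 of 20 higher and a median of 0.07, and its member Serpina3n, an acute-phase protease inhibitor, was at 39.9, 24.6 and 21.04 CPM in TG intranasal and at 22.7, 18.2 and 12.9 CPM in TG control.

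Oligodendrocyte markers were higher in all 14 cases tested, with a median of 0.31, and none had an unadjusted p under 0.05. Mbp, a major myelin protein, was at 16925, 15681 and 23815 CPM in TG intranasal and at 19827, 9059 and 12868 CPM in TG control. Mog, of the outer myelin surface, was at 192, 126 and 174 CPM in TG intranasal and at 166, 97.0 and 88.1 CPM in TG control, and Aspa, which splits N-acetylaspartate, at 50.6, 42.7 and 63.3 CPM in TG intranasal and at 51.1, 34.8 and 24.7 CPM in TG control. All 3 overlapped. Microglia markers were near all genes tested, with 12 of 20 higher, a median of 0.12 (-0.039 without TG intranasal 3) and none at an unadjusted p under 0.05. Of 21 immune activation genes 15 were higher, with a median of 0.39, and 3 had an unadjusted p under 0.05 (3.82% of all genes on the high side). H2-D1, a class I histocompatibility gene, was at 35.7, 27.5 and 29.8 CPM in TG intranasal and at 21.7, 19.0 and 12.5 CPM in TG control, and Cd74, the invariant chain of class II, at 17.0, 9.56 and 14.7 CPM in TG intranasal and at 8.41, 8.32 and 7.19 CPM in TG control. Both were without overlap. The median of the immune list was -0.09 without TG intranasal 1, and that of the oligodendrocyte list was 0.15 without TG control 3. Without the 2 libraries low in Slc6a3, TG intranasal 3 and TG control 3, the sign of both turned, at -0.15 for the immune list and -0.018 for the oligodendrocyte list. Of 17 interferon response genes 11 were higher and 6 lower, with a median of 0.09, and 1 had an unadjusted p under 0.05, Ifi27. It was at 54.2, 41.5 and 48.8 CPM in TG intranasal and at 40.9, 30.1 and 34.3 CPM in TG control. Ependymal genes were lower in 14 of 14, with a median of -0.42 and 2 at an unadjusted p under 0.05 (5.92% of all genes on the low side). Of these, Tmem212 was at 0.794, 0.697 and 1.96 CPM in TG intranasal and at 2.64, 2.73 and 5.63 CPM in TG control.

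Genes of protein synthesis, respiration and protein breakdown lay on the high side almost without exception. Of 80 cytosolic ribosomal protein genes tested (of 84), 77 were higher, with a median log2 fold change of 0.62, and 23 had an unadjusted p under 0.05 (3.82% of all genes did so on the high side). Only 2 of the 80 were without overlap, below the 5.95% of all genes. Rpl17, of the large subunit, was at 694, 832 and 2553 CPM in TG intranasal and at 802, 347 and 634 CPM in TG control. Rps7, of the small subunit, was at 511, 562 and 1382 CPM in TG intranasal and at 512, 244 and 460 CPM in TG control. A single library stood apart in each group, TG intranasal 3 on the high side and TG control 2 on the low side. Rps23 and Rpl39 had the same 2 extremes, at 1089 and 735 CPM in TG intranasal 3 and at 150 and 128 CPM in TG control 2. Some of these genes have many processed pseudogenes, with which the counting could have shared reads.

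Complex I, the entry of electrons into the respiratory chain, had 35 of 36 genes tested on the high side (of 37 in the table). Its median was 0.40, with 3 at an unadjusted p under 0.05 (3.82% of all genes on the high side). Ndufa6 was at 115, 126 and 181 CPM in TG intranasal and at 110, 68.1 and 99.5 CPM in TG control, which did not overlap. Ndufa12 and Ndufs4 were also higher on average, with log2 fold changes of 0.59 each. Complexes II and III had 13 of 13 genes higher, with a median of 0.28, complex IV 13 of 13 with 0.52, and complex V 15 of 15 with 0.33. Sdhb, the iron-sulfur subunit of complex II, was at 197, 191 and 211 CPM in TG intranasal and at 173, 109 and 154 CPM in TG control. Cox6c, of complex IV, was at 463, 515 and 1069 CPM in TG intranasal and at 489, 205 and 429 CPM in TG control, and Cox7a2 at 423, 355 and 549 CPM in TG intranasal and at 352, 186 and 297 CPM in TG control. Atp5j, a subunit of the ATP synthase, was at 199, 242 and 371 CPM in TG intranasal and at 211, 120 and 193 CPM in TG control, and Atpif1, its inhibitor, at 212, 202 and 308 CPM in TG intranasal and at 207, 95.5 and 186 CPM in TG control. TG control 2 was the lowest library in each of these genes. The mitochondrially encoded subunits were not analysed here.

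In the mitochondrial ribosome and the proteasome more members were without overlap than in the cytosolic ribosome. Of 78 mitochondrial ribosomal genes 77 were higher, with a median of 0.34, 16 at an unadjusted p under 0.05 and 15 without overlap. Mrps11 was at 29.2, 29.5 and 33.9 CPM in TG intranasal and at 22.1, 15.7 and 25.2 CPM in TG control, and Mrpl47 at 13.5, 16.2 and 17.7 CPM in TG intranasal and at 12.5, 9.02 and 9.22 CPM in TG control. Of 48 proteasome genes 46 were higher, with a median of 0.31, 11 at an unadjusted p under 0.05 and 19 without overlap. Of all genes, 3.82% had such a p on the high side and 5.95% were higher without overlap. Psma1, of the catalytic core, was at 72.6, 69.9 and 79.5 CPM in TG intranasal and at 61.8, 42.5 and 58.9 CPM in TG control, and Psmd14, the lid deubiquitinase, at 64.5, 77.8 and 82.4 CPM in TG intranasal and at 61.0, 50.01 and 60.6 CPM in TG control. As a list the proteasome did not overlap between the groups: the median deviation of its members from their mean over the 15 libraries was 0.09, 0.13 and 0.24 on the log2 scale in TG intranasal and 0.03, -0.50 and -0.08 in TG control. For complex I the same measure was 0.08, 0.04 and 0.42 in TG intranasal and 0.11, -0.80 and -0.02 in TG control, and for the cytosolic ribosome -0.07, -0.03 and 0.98 in TG intranasal and 0.12, -0.97 and -0.16 in TG control, so that both overlapped.

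**Figure D4:**
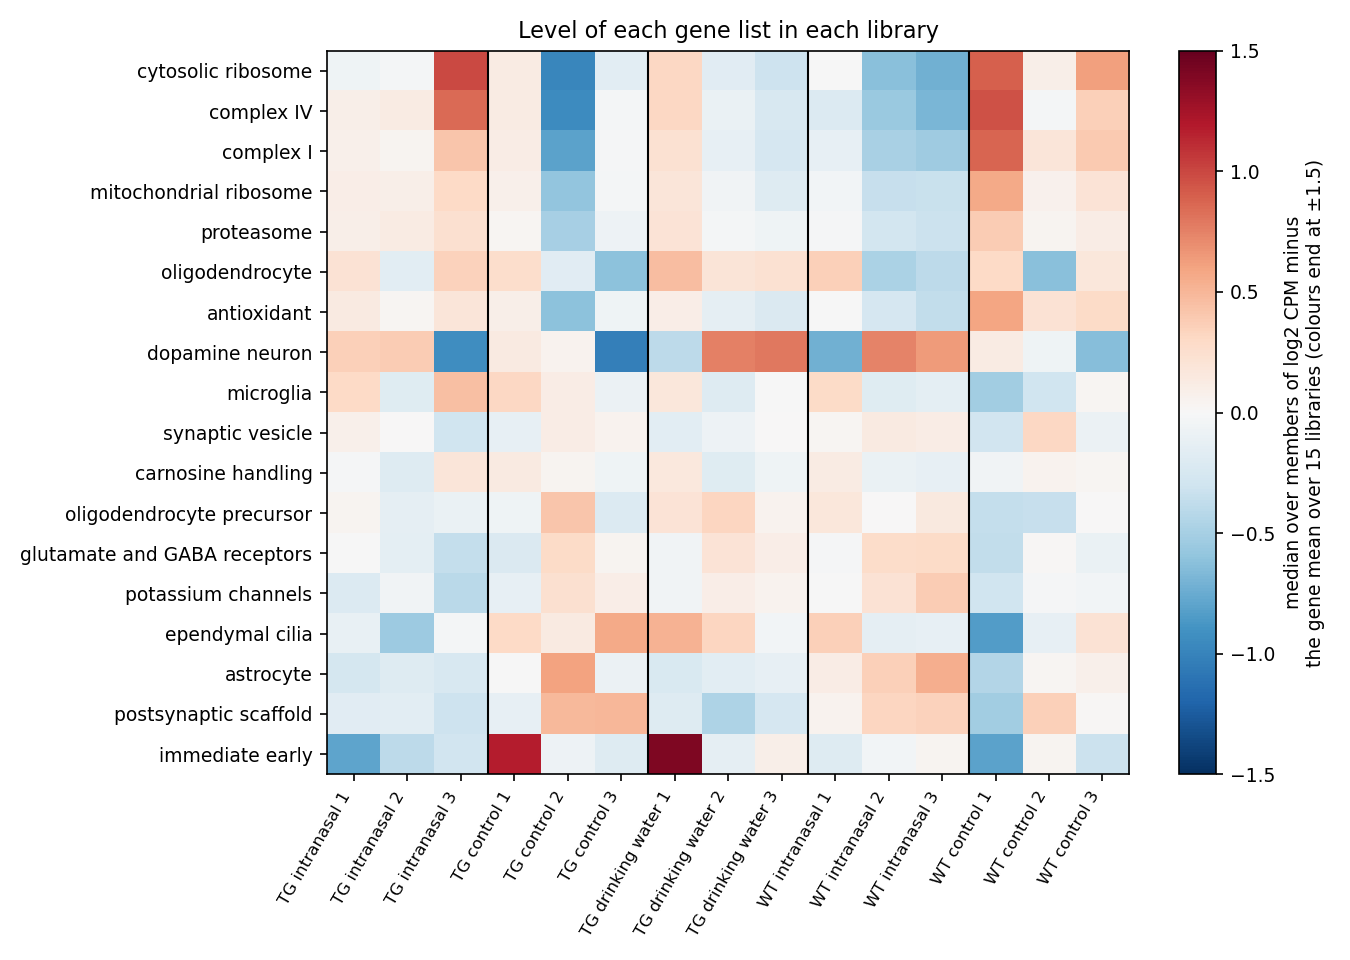
Level of each of 18 gene lists (rows) in each of the 15 libraries (columns), as the median over members of log2 CPM minus the mean of the gene over all libraries; red is above that mean and blue below, and the colours end at 1.5 in either direction. TG control 2 is the lowest of the 6 TG intranasal and TG control libraries for ribosome, respiratory chain and proteasome, TG intranasal 3 is the highest, and TG control 1 is high in immediate early genes.

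These lists hold short transcripts, and the fold change went with transcript length across the table. Over the 15081 genes with a length (95.3% of those tested), the Spearman correlation of the log2 fold change with the length of the longest transcript was -0.46. The genes are not independent replicates, and the correlation describes these 6 libraries only. Among the 3771 genes with the shortest transcripts, up to 2237 bases, 2856 were higher in TG intranasal with a median of 0.22, and among the 3769 with the longest, 775 were higher with a median of -0.23. The median length was 1026 bases for complex I, 1108 for the cytosolic ribosome, 1867 for the mitochondrial ribosome and 5862 for the postsynaptic scaffold, against 3411 for all genes with a length. Correction for length and GC content, added after the data were seen, gave medians of 0.07 for complex I, 0.30 for the cytosolic ribosome, 0.16 for the mitochondrial ribosome and 0.11 for the proteasome. For complexes II and III, IV and V it gave 0.051, 0.17 and 0.071. Without TG control 2 these medians were 0.18, 0.38, 0.17 and 0.19, and those of complexes II and III, IV and V were 0.11, 0.26 and 0.13. Without TG intranasal 3 the median of the cytosolic ribosome was 0.23. Immediate early genes were near the median length, at 2997 bases, and their median after correction was -1.09.

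**Figure D5:**
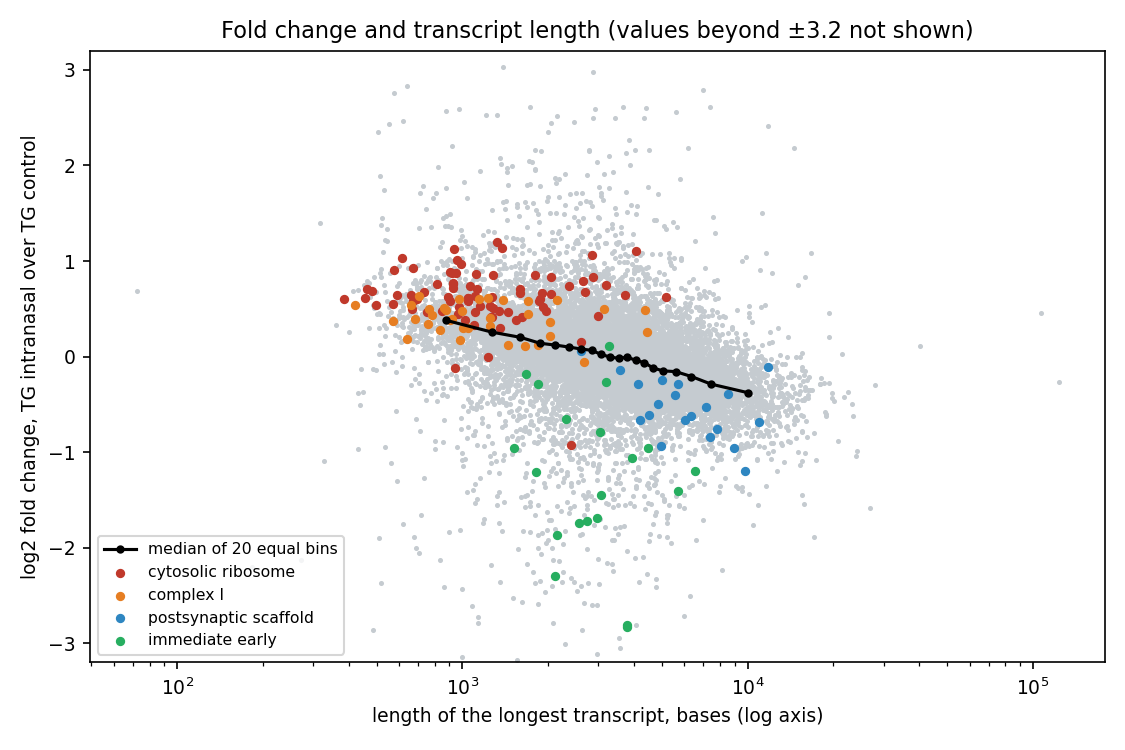
Length of the longest transcript in bases (x axis, log) and log2 fold change of TG intranasal over TG control (y axis) for the genes with a length, a grey point each, with the median of 20 bins of equal size in black and 4 gene lists in colour; values beyond 3.2 in either direction are not shown. The black line falls with length; ribosomal and complex I genes lie at the short end and postsynaptic scaffold genes at the long end, while immediate early genes lie below the line.

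Dopamine neuron genes did not move as a block. Of 19 tested, 12 were higher and 7 lower, with a median of 0.16 (-0.07 without TG intranasal 1). An unadjusted p under 0.05 was found for 3, all lower (5.92% of all genes on the low side). The spread was wide, as the third library of each group was low in the list, at -0.94 in TG intranasal 3 and -1.03 in TG control 3 on the log2 scale of deviations. Nr4a2 (Nurr1), the nuclear receptor that maintains dopamine neurons and also belongs to the immediate early family of Nr4a1, was at 23.2, 28.5 and 17.3 CPM in TG intranasal and at 54.6, 50.5 and 29.5 CPM in TG control, with no overlap. Lmx1a, a transcription factor that specifies these neurons, was at 0.254, 0.0410 and 0.207 CPM in TG intranasal and at 1.07, 0.560 and 0.754 CPM in TG control, also with no overlap and at levels of a few counts. Ddc, which makes dopamine from L-DOPA, was at 40.8, 39.8 and 24.0 CPM in TG intranasal and at 33.6, 26.0 and 13.7 CPM in TG control (log2 fold change 0.51, SE 0.315, edgeR adjusted p 0.557).

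Genes that make, split or carry carnosine and its parts had no common direction. Their log2 fold changes ran from -1.54 to 0.58. Of 15 tested (of 16), 6 were higher and 9 lower, with a median of -0.11. On the low side 1 had an unadjusted p under 0.05, against 5.92% of all genes. The median was 0.033 without TG control 1 and 0.18 with a term for the split between libraries. The gene under 0.05 was Slc6a6, the taurine and beta-alanine transporter, at 71.8, 55.2 and 56.8 CPM in TG intranasal and at 72.0, 101 and 68.7 CPM in TG control. Carns1 was at 14.6, 10.5 and 14.8 CPM in TG intranasal and at 16.3, 12.4 and 9.75 CPM in TG control (log2 fold change 0.06, SE 0.254, edgeR adjusted p 0.945). Cndp2 was at 66.1, 57.3 and 70.3 CPM in TG intranasal and at 66.9, 57.6 and 55.6 CPM in TG control (log2 fold change 0.11, SE 0.14, edgeR adjusted p 0.787). Slc15a2 was at 36.1, 42.5 and 44.9 CPM in TG intranasal and at 38.9, 49.0 and 45.0 CPM in TG control (log2 fold change -0.11, SE 0.151, edgeR adjusted p 0.803). All 4 overlapped, and differences about as large as these standard errors would not have been detectable here. Abat, which breaks down beta-alanine and GABA, and Hnmt, which methylates histamine, had log2 fold changes of -0.32 and 0.36. Antioxidant genes were higher in 19 of 20 cases with a median of 0.30, none at an unadjusted p under 0.05; Prdx3, the mitochondrial peroxiredoxin, was at 91.2, 83.9 and 94.2 CPM in TG intranasal and at 71.9, 50.2 and 71.9 CPM in TG control. As a list the antioxidant genes overlapped between the groups. Their median deviation on the log2 scale was 0.13, 0.03 and 0.18 in TG intranasal and 0.09, -0.62 and -0.06 in TG control. The median log2 fold change of the list was 0.09 without TG control 2. With correction for length and GC content it was also 0.09. Targets of Nrf2, the regulator of the response to oxidants, had a median of 0.10 and were higher in 13 of 19 cases. On the high side 2 had an unadjusted p under 0.05 (3.82% of all genes). With the same correction the median of the Nrf2 list was -0.0020.

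The nasal and the drinking-water route were compared within TG mice, as a difference that uses no control mean. The fit was that of all 15 libraries, which share 1 estimate of spread. TG intranasal against TG drinking water gave 0 calls in edgeR (0%), with 440 genes higher (2.78%) and 709 lower (4.48%) at an unadjusted p under 0.05. DESeq2 gave 24 calls, and edgeR with the 2 groups fitted alone gave 1. Immediate early genes were again on the low side in TG intranasal, with a median log2 difference of -1.12 and 11 of 20 at an unadjusted p under 0.05. Arc was at 71.3, 201 and 147 CPM in TG intranasal and at 526, 177 and 156 CPM in TG drinking water, and Fos at 5.24, 19.3 and 17.9 CPM in TG intranasal and at 140, 25.5 and 35.96 CPM in TG drinking water. The first TG drinking water library was far above its group in both. Thalamic and habenular genes had a median of -1.06 with 6 of 12 at an unadjusted p under 0.05 on the low side, and blood genes a median of -2.78 with 5 of 6. For thalamic and habenular genes the summed level was 172, 137 and 276 CPM in TG intranasal and 497, 418 and 338 CPM in TG drinking water. For blood genes it was 9.72, 6.85 and 10.0 CPM in TG intranasal and 28.4, 14.3 and 49.1 CPM in TG drinking water. Postsynaptic scaffold genes had a median of 0.07 between the routes, with 0 of 20 at an unadjusted p under 0.05 in either direction.

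Whether nasal carnosine went with other differences in TG mice than in WT mice was asked with the genotype by treatment interaction. It gave 367 calls in edgeR (2.32%), 225 where the log2 fold change in TG was above that in WT (1.42%) and 142 where it was below (0.898%). Complex I had 12 of its 36 genes called, all above, with a median log2 fold change of 0.40 in TG mice and -0.88 in WT mice, and the cytosolic ribosome had 6 of 80 called, all above, with medians of 0.62 in TG mice and -0.98 in WT mice. Mitochondrial ribosomal genes had 10 of 78 called, all above. On the other side were Slc1a2, with an interaction of -2.68, and Shank1, with -1.86. The count was unstable: it was 0 without TG intranasal 2, 0 without TG control 2, 2389 without TG control 1, 0 with a term for the split between libraries and 1 after correction for length and GC content.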

How the data were processed

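RNA was sequenced from 15 midbrain samples of TG and WT mice, 3 per group. Per the labels' protocols, extraction of total RNA used the mirVana kit, and library preparation was a standard Illumina one. The authors deposited raw counts, whole numbers for each gene ID, without normalization. The sources used here do not name the aligner, counting program, strand setting, genome build or annotation. Names were matched by gene ID to a RefSeq table (GRCm38.p6) for 24374 of 24454 rows; 80 stayed unnamed and held 0.148% to 6.23% of a library's counts. Columns were assigned to samples by the label descriptions. Nothing states that samples of a group come from separate animals, so p-values measure the spread between these samples, which may be technical.

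In R 4.3.3, edgeR 4.0.16 was used with filterByExpr (15818 genes kept), TMM scaling and a quasi-likelihood fit of 5 group means to all 15 libraries, which share 1 estimate of spread. Contrasts were TG intranasal minus TG control, TG intranasal minus TG drinking water, and the interaction (the difference in TG minus that in WT). Calls used Benjamini-Hochberg adjusted p under 0.05. SE is the absolute log2 fold change over the square root of F. Log2 CPM used a prior count of 2. Lists needed at least 3 tested members; all counts and medians over lists are descriptions without a test. Transcript lengths are those of the longest GENCODE M21 transcript of a gene. The procedure was tested on simulated counts, which held neither the library split nor the tissue and length differences of these data. Counting error is smallest in the deepest libraries, and the TG control libraries are the shallower ones.

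Named genes are Thy1, the 5 smallest p in each direction and up to 4 members of each list with the smallest p, without predicted genes and pseudogenes; a few of these are left out. Fos, Slc6a3, Th, Gh, Gabra6, Carns1, Cndp2, Slc15a2, Rnaset2b, Itgae, Bco1, Dusp1 and Adcy5 were named after their values were seen. The members and lists were chosen with earlier results of these data known. Alternatives were other scalings, DESeq2 1.42.0, voom (limma 3.58.1), other filters, fits of the compared groups, a replicate block, a term for the library split and leaving out each library. Correction for length and GC, leaving out the rows that mark the split, leaving out the 2 libraries low in Slc6a3, and TG control 3 as the only control were added after the data were seen.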

Additional observations from a re-analysis of the deposited data

Results flagged for a closer look

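The results here are genes named in the report whose difference between nasal carnosine and control was not the same in TG mice as in WT mice, by edgeR's interaction test at an adjusted p under 0.05. The value is the log2 fold change in TG mice minus that in WT mice. For Lrrc17 it was 5.94 (adjusted p 0.0154), from 4.09 in TG mice and -1.84 in WT mice. For the genes that follow the adjusted p was 0.0487 in each case.

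Positive differences were 1.30 for Tpm2 and 1.87 for Cela1. In the respiratory chain they were 1.43 for Ndufa6, 1.49 for Ndufa12, 1.11 for Sdhb, 1.97 for Cox7a2 and 1.52 for Atpif1. Among ribosomal genes they were 2.32 for Rpl39, 1.33 for Mrps11 and 0.95 for Mrpl49. Pvalb, a calcium-binding protein of fast-spiking interneurons, had 1.63, with log2 fold changes of 0.70 in TG mice and -0.92 in WT mice. For Ndufa6 these were 0.60 in TG mice and -0.82 in WT mice, and for Rpl39 1.03 in TG mice and -1.29 in WT mice.

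Negative differences were -3.59 for Cdr1, -3.41 for Mir6240 and -7.26 for Wdr63. The last depends on the default prior count of edgeR's fit, not on the 2 of log2 CPM, since Wdr63 had no counts in TG intranasal. For potassium channels the differences were -1.55 for Kcnma1, -1.60 for Kcnq3 and -1.25 for Kcnj2. Shank1 had -1.86, and the astrocyte transporters had -2.68 for Slc1a2 and -2.13 for Slc4a4. For Slc1a2 the log2 fold change was -1.36 in TG mice and 1.32 in WT mice. The adjusted p of 0.0487 is close to the threshold, and the number of genes called moved with single libraries as the report gives. That number was 0 with a term for the split between libraries and 1 after correction for length and GC content. Mir6240 lay with that split. Its log2 fold change in TG mice was -3.84 without the term and -0.48 with it, which leaves TG control 3 as the only control.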

How the results depend on the processing

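TG intranasal against TG control gave 19 calls in DESeq2, 0 in voom, 5 without a filter, 0 with the compared groups alone and 2 at an adjusted p of 0.1, against 1 in the report. Leaving out a library gave 0 to 8. Without the 2 libraries low in Slc6a3 there were 6 calls, all lower. A term for the library split leaves TG control 3 as the only control. The log2 fold change of Adcy5 was -1.80 with that term and with TG control 3 alone, and -0.21 without TG control 3. Adcy5 was at 595 CPM in TG control 3. That library also had the highest summed level of striatal genes, at 1547 CPM, and the part of tissue makeup was not tested. The other settings, the replicate block aside, gave 1 call, as in the report. TG intranasal against TG drinking water gave 24 calls in DESeq2 and 1 with the compared groups alone, and 0 in every other setting, leaving out a library included. The interaction gave 706 calls with RLE scaling, 2422 in DESeq2, 1083 in voom, 1276 without a filter, 1253 with a filter of 5 CPM, 0 with the compared groups alone, 0 with a split term, 2880 at an adjusted p of 0.1, 1 with length and GC correction and 8 without the 2 libraries low in Slc6a3. Leaving out a library gave 0 to 2389. The causes were not tested.

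Whether replicate numbers pair the samples is not known. Same-numbered libraries of TG intranasal and TG control had deviations correlated at 0.00425, 0.224 and 0.139. For libraries of these groups with unlike numbers the correlation ran from -0.223 to 0.106. With a replicate block there were 0 calls for TG intranasal against TG control (Lrrc17 adjusted p 0.0509), 0 against TG drinking water and 2598 for the interaction.

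Lrrc17 also missed in voom (adjusted p 0.491) and without the 2 libraries low in Slc6a3 (0.0652). With TG control 3 as the only control its log2 fold change was 3.54, the same as with the split term. The sign changed for 4 named genes, each without a call. Btg2 was 0.15 with a split term and 0.15 with TG control 3 alone, and from -2.17 to 0.029 (without TG control 1) when a library was left out. Npas4 was 0.69, 0.69 and from -3.35 to 0.71 in the same settings. Carns1 was -0.19 without the 2 libraries low in Slc6a3, where Cndp2 was -0.0055, and from -0.10 to 0.26 when a library was left out. Upper-quartile scaling set the median of all genes to 0.03. With 3 libraries a group, genes of a few counts are limited by depth.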

Other observations

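Genes of chromosome 17 were seen more than once among the smallest p of TG intranasal against TG control. Of 785 tested genes on chromosome 17, 25 had an unadjusted p under 0.01 (3.18%), against 0.408% to 2.26% on the other autosomes and the X chromosome. Chromosome 17 did not lead at an unadjusted p under 0.05, with 11.8% of its genes against 13.9% on chromosome 18. Of all 15818 genes tested, 1541 had such a p. Without overlap were 13.9% of the genes on chromosome 17 and 15.9% on chromosome 18. Glo1 and H2-D1, described in the report, are among the genes of this chromosome that were tested.

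A few genes were at 0 counts in a whole group. Of the genes tested, 5 had 0 counts in all 3 TG intranasal libraries and counts in all 12 others, and 1 had 0 counts in all 3 TG control libraries and counts in all 12 others. Of the 5, Wdr63 is described in the report. Rnaset2b, a ribonuclease gene of chromosome 17 with a near-identical copy, had 2, 9 and 20 counts in TG control, which makes TG intranasal at least 6.29-fold lower against the floor of 3 counts per library. Itgae, an integrin of resident T cells, had 11, 4 and 5 counts in TG control (at least 4.41-fold lower). The others were Snord22, a small nucleolar RNA, and Gm16740. In DESeq2 Rnaset2b, Itgae and Snord22 passed, with adjusted p of 0.00546, 0.026 and 0.0398. Bco1, a carotenoid oxygenase, had 10, 9 and 22 counts in TG intranasal and 0 in TG control, at least 2.24-fold higher.

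Of 22 endothelial and mural genes 12 were higher and 10 lower, with a median of 0.04. On the high side 1 had an unadjusted p under 0.05 (3.82% of all genes). That was Acta2, smooth muscle actin, at 57.8, 18.4 and 11.3 CPM in TG intranasal and at 13.2, 6.57 and 11.1 CPM in TG control. Of 13 meningeal fibroblast genes 10 were higher and 3 lower, with a median of 0.28, and the 2 at an unadjusted p under 0.05, Lum and Islr, had log2 fold changes of 0.79 and 0.67. Of 17 circadian clock genes 14 were lower, with a median of -0.21, and of 14 glucocorticoid response genes 9 were lower, with -0.09. Among these genes, Hlf was at 153, 164 and 147 CPM in TG intranasal and at 187, 237 and 215 CPM in TG control, and Klf9 at 119, 114 and 114 CPM in TG intranasal and at 153, 162 and 177 CPM in TG control. The habenular gene Gpr151 was at 0.763, 0.410 and 0.741 CPM in TG intranasal and at 4.78, 1.54 and 2.96 CPM in TG control. Hlf, Klf9 and Gpr151 were without overlap, as were 5.86% of all genes on the low side.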
